A study of Mus musculus with 10 samples.

Results

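The genes described here are the amyloid precursor protein family, App, Aplp1 and Aplp2, and the erlins, Erlin1 and Erlin2. The rule takes them by name, as genes whose proteins are known partners of the rhomboid protease RHBDL4, and was set with earlier results of these data known. All 5 were found by symbol among the 57010 genes of the count table, and all 5 passed the low-count filter. RNA was measured by poly(A) sequencing of whole mammary tumours from untreated MMTV-PyMT mice, in which the mouse mammary tumour virus promoter drives the polyoma middle T oncogene in mammary epithelium. All 10 tumours carried PyMT and were taken 5 weeks after tumour onset. Of these, 5 had the genotype RHBDL4 -/- (knockout) and 5 the genotype RHBDL4 +/+ (wild type). The sources used here do not give age, strain or the design of the knockout allele.

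RHBDL4 is a protease of the endoplasmic reticulum membrane that cuts membrane proteins, and APP is among its known substrates. APP is a single-pass membrane glycoprotein. Secretases at the cell surface and in endosomes cut it, and the beta and gamma secretases together release the amyloid beta peptide. APLP1 and APLP2 are its paralogs: they share the large extracellular domains and the cytoplasmic tail but lack the amyloid beta sequence, and APLP1 is best known from neurons while APP and APLP2 are widely expressed. The erlins are membrane proteins of the endoplasmic reticulum with an SPFH domain that assemble into large rings, hand activated IP3 receptors to the ubiquitin ligase RNF170 for degradation, bind components of the sterol sensor, and pass aggregation-prone substrates to RHBDL4. Cleavage and degradation act on proteins. The counts measure only messenger RNA.

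The paralogs are related enough to ask whether their reads could be confused. The windows shown here are cut from the principal coding sequences in GENCODE M21 (build GRCm38, whereas the counts were made on another build). They cover the codons around the NPTY motif of the cytoplasmic tail, through which the family binds adaptor proteins. Capitals mark the 28 of 54 bases that are identical in App (chromosome 16), Aplp1 (chromosome 7) and Aplp2 (chromosome 9), written 5′ to 3′ along the messenger RNA.

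App: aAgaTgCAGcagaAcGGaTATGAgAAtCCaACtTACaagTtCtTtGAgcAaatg
Aplp1: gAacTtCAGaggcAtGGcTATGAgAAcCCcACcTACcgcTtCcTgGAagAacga
Aplp2: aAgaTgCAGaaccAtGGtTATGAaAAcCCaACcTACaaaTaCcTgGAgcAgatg

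Even there the identical bases came in short pieces. Over whole coding sequences, 62.5% of bases in aligned codons were identical between App and Aplp2, 53.4% between App and Aplp1 and 53.9% between Aplp1 and Aplp2. The longest run of identical bases between App and Aplp2 was 24 bases long. Erlin1 (chromosome 19) and Erlin2 (chromosome 8) were closer, with 70.3% identical bases in aligned codons, and their longest identical run was 26 bases long. Both runs are shown whole, in capitals. Between the principal messenger RNAs, they are the longest stretches over which a read matches both paralogs without a mismatch. For App the principal form encodes 695 residues, and other protein-coding transcripts of the members were not compared.

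App and Aplp2, shared run: CTATGGCATGCTGCTGCCCTGCGG
Erlin1 and Erlin2, shared run: ATTGAAGATGCTGCGTTCCTGGCCCG

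No member is therefore a near-identical copy of another at the level of the principal messenger RNA. App shares exon bases with an antisense gene, Gm49227, and the sources used here do not give the strand setting of the counting. That antisense gene held 0 to 3 counts per library, against 6748 counts or more for App. No other gene of that annotation shares exon bases with the 4 other members.

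The libraries held 25.7 to 43.3 M counts. The labels do not say which libraries came from separate animals, and p-values here reflect only how these samples vary, which may be technical in part. Levels are in CPM, a library's counts scaled to a common size with TMM normalization. Rhbdd1, the gene of RHBDL4, averaged 17.0 ± 3.40 CPM over the knockout and 35.2 ± 7.48 CPM over the wild-type libraries (SD, n = 5), with no overlap (log2 fold change -1.05 ± 0.20, SE). It was not called by edgeR's quasi-likelihood test (adjusted p = 0.669, and 0.113 without wild-type replicate 5) but was by DESeq2 (adjusted p = 3.1e-04 and 7.4e-07). Unscaled, its wild-type replicate 5 (14.7 CPM) lay inside the knockout range of 13.4 to 24.0 CPM. That library stands apart: luminal epithelial markers took 0.0109% of its counts, against 0.607% to 0.928% in the other 9 libraries, and skeletal muscle markers took 8.43%, against at most 0.163%. Results for the members are given with and without it. Proliferation markers summed to 0.0401% to 0.0857% of counts in knockout libraries and 0.0895% to 0.124% in wild-type replicates 1 to 4, with no overlap. In wild-type replicate 5 their share was the lowest of all, at 0.00297%. Single markers such as Mki67 and Top2a overlapped between knockouts and wild-type replicates 1 to 4, while others such as Ccnb1 and Cdk1 did not. The part of the proliferation markers in the results that follow was not tested.

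App had the highest mean count of the members in both genotypes and the smallest spread without wild-type replicate 5. Knockout replicates 1 to 5 held 689, 832, 756, 708 and 705 CPM, and wild-type replicates 1 to 5 held 733, 735, 779, 809 and 450 CPM. Apart from the low wild-type replicate 5, the groups covered each other: the lowest and the highest of the other 9 libraries were both knockouts. Knockout libraries averaged 738 ± 58.3 CPM and wild-type libraries 701 ± 144 CPM (SD, n = 5). The log2 fold change, knockout over wild type, was 0.07 ± 0.18 (SE; Benjamini-Hochberg adjusted p = 0.904 by edgeR). Rescaled without wild-type replicate 5, these averages were 787 ± 64.0 CPM (n = 5) and 805 ± 44.5 CPM (n = 4), and the log2 fold change was -0.03 ± 0.09 (edgeR adjusted p = 0.914). Its 95% interval there ran from -0.23 to 0.17, or 0.85 to 1.12 in fold. A change of App messenger RNA as large as that of Rhbdd1 (-1.14) lay far outside this interval.

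Aplp2, the other widely expressed paralog, varied more between tumours than between genotypes. Knockout replicates 1 to 5 held 554, 439, 498, 387 and 510 CPM, and wild-type replicates 1 to 5 held 561, 536, 368, 403 and 703 CPM. Wild-type replicates 1 and 2, whose library names begin with the same number, were both high, and wild-type replicates 3 and 4, which share another number, were both low. The labels do not say whether such a number marks an animal. In the remaining such pair, knockout replicates 3 and 4, the values were further apart. The log2 fold change was -0.11 ± 0.20 with all libraries (edgeR adjusted p = 0.879) and 0.05 ± 0.15 without wild-type replicate 5 (knockout 509 ± 67.7 CPM, n = 5, wild type 491 ± 97.5 CPM, n = 4; adjusted p = 0.920). The 95% interval of the latter ran from -0.29 to 0.39.

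Aplp1 was the scarcest member and the one whose genotype groups stood furthest apart without wild-type replicate 5. Knockout replicates 1 to 5 held 18.7, 20.9, 19.5, 20.7 and 14.3 CPM. Wild-type replicates 1 to 5 held 32.6, 20.8, 20.5, 23.7 and 2.27 CPM, the last of these from 34 counts. Wild-type replicate 1 lay above all other libraries and knockout replicate 5 below all but wild-type replicate 5, while the remaining 7 libraries lay between 18.7 and 23.7 CPM. With all libraries the log2 fold change was -0.09 ± 0.50 (edgeR adjusted p = 0.964). Without wild-type replicate 5, knockout libraries held 20.0 ± 2.90 CPM (n = 5) and wild-type libraries 25.7 ± 5.85 CPM (n = 4). The log2 fold change was -0.36 ± 0.17 (unadjusted p = 0.0662, edgeR adjusted p = 0.465). The difference did not pass the test, and 1 library carries much of it: without wild-type replicate 1 as well, the log2 fold change was -0.19 (edgeR adjusted p = 0.671). The 95% interval, -0.74 to 0.03, was the widest of the 5 members and includes both no change and a fall to 0.60 of the wild-type level.

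Markers of nerve, Schwann and neuroendocrine cells were set beside Aplp1. Their summed share was 0.0395% to 0.0545% of counts in knockout libraries, 0.0434% to 0.0494% in wild-type replicates 1 to 4 and 0.0496% in wild-type replicate 5. None of the 16 genes was at 0 in every library. Snap25, a synaptic vesicle fusion protein of neurons, was at 0 in 8 of 10 libraries. Aplp1 was lowest in wild-type replicate 5, where this list's share was inside the knockout range. Most of the list's share in the other 9 libraries came from Sox10 (305 to 460 unscaled CPM), a transcription factor of neural crest and also of mammary epithelium, which stood at 9.67 unscaled CPM in wild-type replicate 5. The part of these cells in the Aplp1 values was not tested.

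Among the erlins, Erlin2 was the more abundant in every library. Knockout replicates 1 to 5 held 142, 133, 141, 122 and 153 CPM of Erlin2, and wild-type replicates 1 to 5 held 160, 158, 138, 144 and 57.0 CPM. The 2 highest libraries were wild-type and the lowest but for wild-type replicate 5 was a knockout, with overlap in between. The log2 fold change was 0.07 ± 0.25 with all libraries (edgeR adjusted p = 0.933). Without wild-type replicate 5 it was -0.10 ± 0.09, from averages of 147 ± 12.3 CPM over knockouts (n = 5) and 158 ± 9.87 CPM over wild types (n = 4; edgeR adjusted p = 0.688). The 95% interval of -0.30 to 0.10 allows at most a fall to 0.81 of the wild-type level.

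Erlin1 held 49.4, 43.8, 37.0, 43.4 and 51.8 CPM in knockout replicates 1 to 5. In wild-type replicates 1 to 5 it held 44.2, 54.2, 47.3, 42.6 and 27.0 CPM. Once wild-type replicate 5 was set aside, the groups overlapped in part, at 37.0 to 51.8 CPM in knockouts and 42.6 to 54.2 CPM in wild types. The log2 fold change was 0.07 ± 0.18 with all libraries (edgeR adjusted p = 0.918) and -0.05 ± 0.12 without that library (48.1 ± 6.14 CPM, n = 5, against 49.6 ± 5.20 CPM, n = 4; adjusted p = 0.909). The 95% interval of the latter was -0.31 to 0.22.

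**Figure D1:**
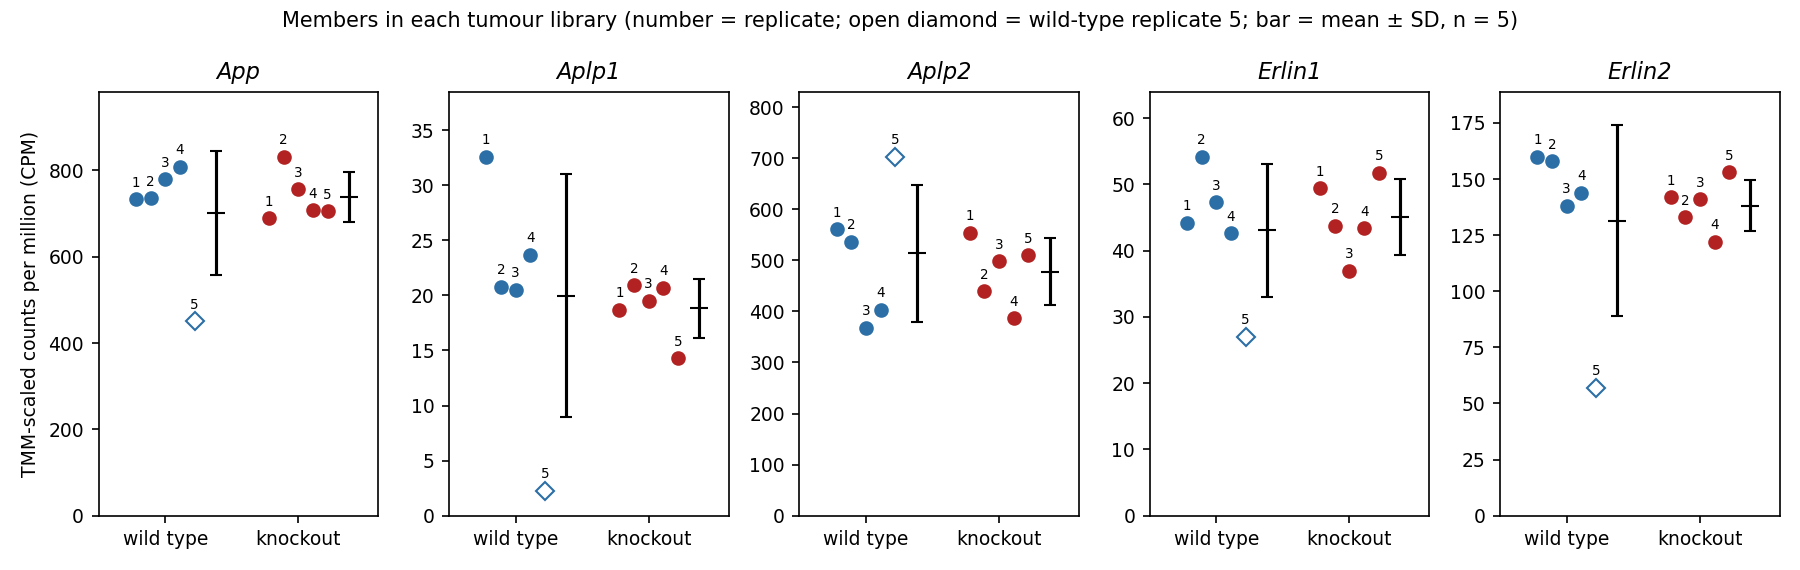
TMM-scaled CPM of each member (y axis, from 0, a different scale in each panel) in the 5 wild-type (blue) and 5 knockout (red) libraries; each point is 1 library with its replicate number, and black bars are the mean and SD. Wild-type replicate 5 (open diamond) lies below all other libraries for App, Aplp1, Erlin1 and Erlin2 and above them for Aplp2, while the other libraries of both genotypes overlap in every panel.

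Of the 5 members, 0 passed the test over all genes in either fit. The shares of all genes that did were 0% of 18577 with all 10 libraries and 0.0105% of 19016 without wild-type replicate 5, so a count of 0 is also the background. At an unadjusted p under 0.05, edgeR had 1301 of 18577 genes with all libraries. DESeq2 called 0.291% and 2.43% of genes in those 2 sets of libraries, and limma-voom with sample quality weights called 0.0915% and 0.752%. Neither tool called a member. At an unadjusted edgeR p under 0.05 stood 0 of the 5 members, against a background of 7.00% of all genes with all libraries and 11.6% without wild-type replicate 5. The genotype groups overlapped for all 5 members in both fits. They did not overlap for 1.99% and 5.44% of all genes.

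**Figure D2:**
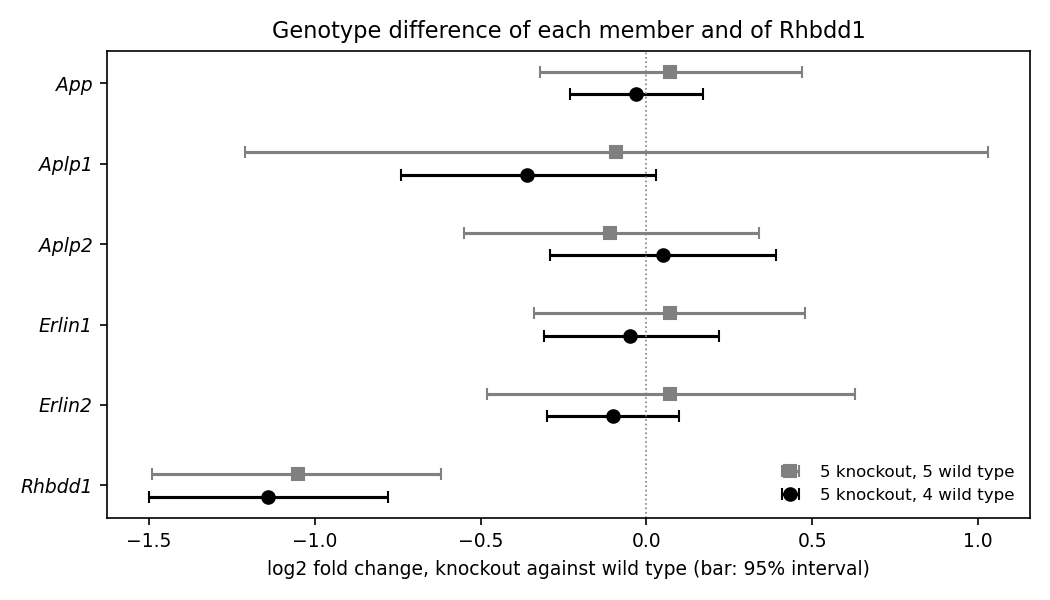
Log2 fold change of knockout against wild type (x axis) with its 95% interval for the 5 members and Rhbdd1, from 5 against 5 libraries (grey squares) and from 5 against 4 libraries without wild-type replicate 5 (black circles). All 10 intervals of the members include 0, those of Rhbdd1 do not, and the members' intervals are narrower without wild-type replicate 5.

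Wild-type replicate 5 moved the members more than the genotype did. App stood there at 450 CPM against 689 to 832 CPM in the other 9 libraries, Aplp1 at 2.27 against 14.3 to 32.6 CPM, Erlin1 at 27.0 against 37.0 to 54.2 CPM and Erlin2 at 57.0 against 122 to 160 CPM. These 4 were below the other 9 libraries with and without TMM scaling, whose factor was 0.588 for this library. Aplp2 behaved otherwise. Scaled, it stood above the rest (703 against 368 to 561 CPM), but unscaled it lay inside their range (413 against 392 to 595 CPM). In whole tissue, fewer cells of a type and less RNA per cell cannot be told apart, and the part of the low epithelial share in these values was not tested.

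Ratios within a library need no scaling between libraries. Aplp2 counts were 80.5%, 52.8%, 66.0%, 54.7% and 72.4% of App counts in knockout replicates 1 to 5. They were 76.6%, 73.0%, 47.3%, 49.8% and 156% in wild-type replicates 1 to 5. The balance of the paralogs thus varied over a similar range in both genotypes, and only in wild-type replicate 5 did Aplp2 exceed App. Aplp1 counts were 2.02% to 2.92% of App counts in knockout libraries, 2.64% to 4.45% in wild-type replicates 1 to 4 and 0.504% in wild-type replicate 5. Erlin1 counts were 26.2% to 35.6% of Erlin2 counts in knockout libraries, 27.7% to 34.4% in wild-type replicates 1 to 4 and 47.3% in wild-type replicate 5. On all of these ratios the genotypes overlapped.

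**Figure D3:**
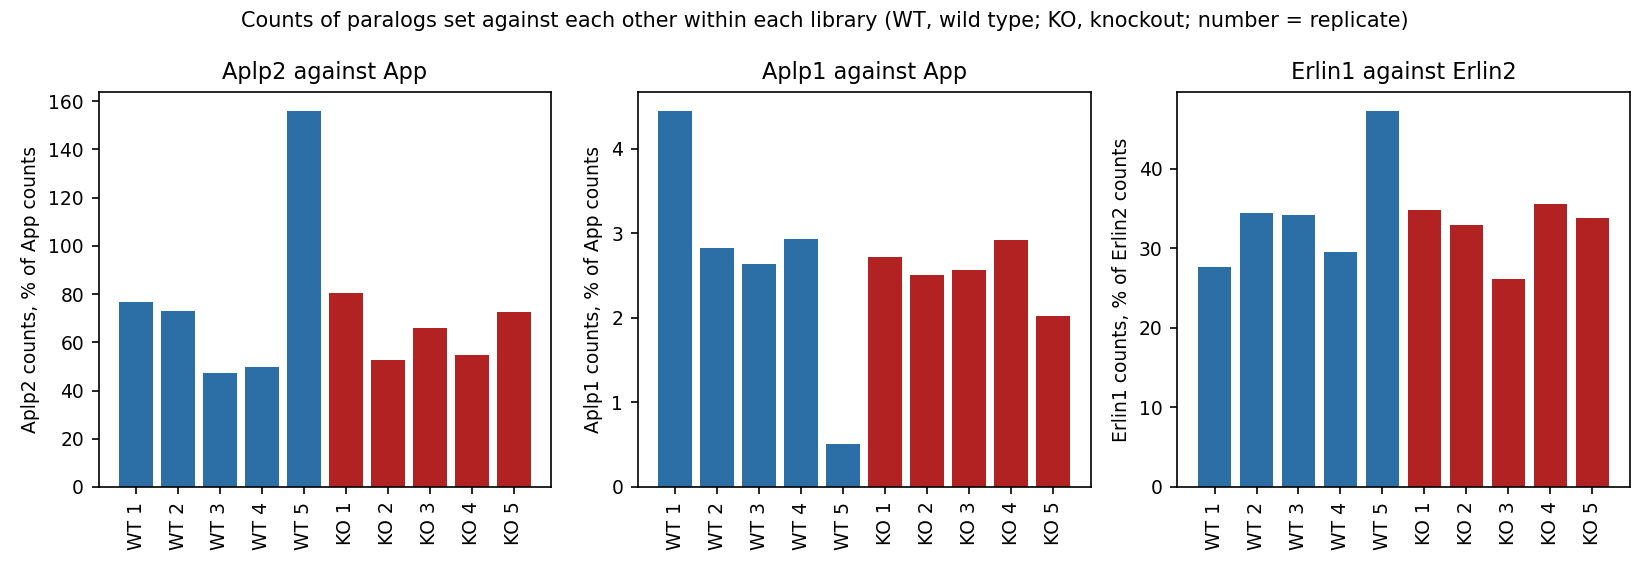
Counts of Aplp2 and Aplp1 as a percent of App counts, and of Erlin1 as a percent of Erlin2 counts (y axes, from 0), in each wild-type (blue) and knockout (red) library; there is 1 bar per library and no error bar. Wild-type replicate 5 has the highest Aplp2 (156%) and Erlin1 (47.3%) shares and the lowest Aplp1 share (0.504%).

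Per kilobase of the principal messenger RNA, the members ranked App, Aplp2, Erlin2, Erlin1 and Aplp1. Without wild-type replicate 5 these levels were 248 ± 20.1, 140 ± 18.6, 30.4 ± 2.58, 14.9 ± 1.90 and 8.56 ± 1.25 CPM per kb in knockout libraries (SD, n = 5). Aplp2 was below App in 9 of 9 libraries, at 41.4% to 70.5% of its level per kb, Erlin2 was at 19.2% to 28.2% of Aplp2, and Erlin1 was at 39.3% to 53.3% of Erlin2. Erlin1 and Aplp1 were not separated in every library, since Aplp1 stood at 38.0% to 102% of Erlin1. The order of the first pair depends on the length used. App has 6 protein-coding transcripts of differing length, and over the merged length of all annotated exons (13.00 kb, against 3.18 kb for the principal messenger RNA) Aplp2 was above App, at 104% to 178% of its level per kb. Gene counts do not tell which transcript was present.

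Across the 9 libraries without wild-type replicate 5, App and Erlin2 varied little for their level. The coefficient of variation was 6.75% for App, where genes within 1.5-fold of its level had a median of 14.0%, and 7.86% for Erlin2, where the median was 15.0%. For Erlin1 it was 11.2% against 15.8% and for Aplp2 15.4% against 15.6%. Aplp1 was above its neighbours, at 22.6% against 19.3%. App therefore spanned only 1.22-fold from its lowest to its highest library, and Aplp1 2.24-fold.

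The genes with the most similar profiles were sought by Pearson's r of log2 CPM over these 9 libraries, among 12968 genes. With so many genes ranked over so few libraries, high values are found for nearly any gene, and r is given as a description only. Nearest to App were Cdadc1 (r = 0.880), the calcium-binding S100g (0.877) and the adhesion protein gene Nptn (0.876). Nearest to Aplp2 were Pogk (0.982), the G-protein regulator Rgs11 (0.968) and Ogdhl (0.938), and nearest to Aplp1 were Ghitm, a protein of the inner mitochondrial membrane (0.987), the G-protein subunit Gnb4 (0.970) and Stard3nl (0.957). For Erlin1 they were the mitochondrial myosin Myo19 (0.958), Rtl10 (0.950) and Disp1 (0.935), and for Erlin2 the proprotein convertase Pcsk6 (0.955), Sympk (0.936) and Rtl6 (0.935). No member was among the 3 nearest genes of another. Between App and Aplp1, r was 0.219 over these libraries and 0.925 with wild-type replicate 5 added, so that the latter value rests on 1 library.

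The genes that act around these proteins were followed in 7 lists of 82 genes, of which 73 were tested. No gene of the lists passed the edgeR test in either fit. Without wild-type replicate 5, 53 of the 73 log2 fold changes were positive, with a median of 0.12, beside 53.2% positive and a median of 0.03 over all genes. With all libraries, 36 of 73 were positive, beside 43.8% positive and a median of -0.06 over all genes. Without wild-type replicate 5, 6 of the 73 genes stood at an unadjusted edgeR p under 0.05 (8.22%, background 11.6%). For 2 of them (2.74%, background 5.44%), Vps35 and Stoml2, the genotypes did not overlap. With all libraries these were 3 genes (4.11%, background 7.00%) and 1 gene, Stoml2 (1.37%, background 1.99%).

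Of the secretases that cut APP, 12 of 12 were tested and 0 passed. Their median log2 fold change without wild-type replicate 5 was 0.14, with 10 of 12 positive, and 0.12 with all libraries, again with 10 of 12 positive. Adam10, the main alpha secretase, averaged 212 ± 28.0 CPM over knockouts (n = 5) and 187 ± 31.1 CPM over wild types (n = 4). Bace1, the beta secretase, stood at 34.9 ± 8.54 against 32.1 ± 6.70 CPM. Neither passed (edgeR adjusted p = 0.642 and 0.845), and the groups overlapped for both. The 3 members of this list with the smallest p were Adam9 (log2 fold change 0.23) and the gamma secretase subunits Aph1b (0.43) and Aph1c (0.46). With all libraries these were 0.11, 0.34 and 0.29, and Aph1b was 0.28 without wild-type replicates 1 and 5. Aph1b and Aph1c are close copies of each other whose reads could have been split, and their lowest p was 0.116 unadjusted (edgeR adjusted p = 0.529). Among the 5 amyloid-degrading enzymes tested of 6, Thop1, a metallopeptidase, had the smallest p without wild-type replicate 5. It stood there at 55.4 ± 12.4 CPM over knockouts and 78.6 ± 8.95 CPM over wild types (log2 fold change -0.50, edgeR adjusted p = 0.322). With all libraries its log2 fold change was -0.33, and its unadjusted edgeR p was 0.267, against 0.0121 without that library. Ece1 had a log2 fold change of 0.22 (-0.33 with all libraries, 0.09 without wild-type replicates 1 and 5). Ide, the insulin-degrading enzyme, had one of -0.15 (-0.38 with all libraries, -0.05 without wild-type replicates 2 and 5).

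The adaptors and sorting proteins of APP gave 20 tested genes of 22, 16 of them with positive log2 fold changes without wild-type replicate 5 and 10 with all libraries. Sorl1, a receptor that carries APP from endosomes back to the Golgi, stood at 57.1 to 140 CPM in knockout libraries (98.1 ± 30.5, n = 5) and 52.4 to 70.2 CPM in wild-type libraries (59.9 ± 7.48, n = 4). Its log2 fold change was 0.71 ± 0.22 (edgeR adjusted p = 0.317), and 0.65 with all libraries. Vps35, the core of the retromer that works with it, stood at 153 to 177 CPM in knockout and 180 to 237 CPM in wild-type libraries, with no overlap. This was a difference of -0.30 ± 0.10 in log2 (edgeR adjusted p = 0.329). With wild-type replicate 5 included its groups overlapped. The third by p was the adaptor Apbb3, with a log2 fold change of 0.30. Neither Sorl1 nor Vps35 was called.

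Of the partners at the cell surface, 8 of 11 were tested. Reln, which encodes reelin, was low in both groups, at 1.30 ± 0.243 CPM over knockouts and 0.567 ± 0.303 CPM over wild types (log2 fold change 1.20, edgeR adjusted p = 0.317). With wild-type replicate 5 its log2 fold change was -1.40, so its direction rests on that library. Gabbr1, a subunit of the GABA-B receptor, and Apoe, a lipid carrier, had log2 fold changes of 0.76 and 0.35 (edgeR adjusted p = 0.521 and 0.662), which were -0.18 and -0.10 with all libraries. Leaving out 1 library besides wild-type replicate 5 moved Gabbr1 to 0.45 (wild-type replicate 1) or 1.15 (wild-type replicate 2), and Apoe to 0.15 (wild-type replicate 1), 0.19 (knockout replicate 2) or 0.61 (wild-type replicate 3).

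The erlins' partners in degradation were all tested (15 of 15), with 11 positive log2 fold changes, a median of 0.11 and a range of -0.18 to 0.39 without wild-type replicate 5. With that library 7 of 15 were positive and the median was -0.06. Among those with the smallest p were the ubiquitin ligases Syvn1 (79.6 ± 3.37 against 71.1 ± 4.23 CPM) and Rnf170 (21.5 ± 2.55 against 18.1 ± 1.62 CPM), neither of them called (edgeR adjusted p = 0.457 and 0.488). Rnf170 is the ligase that sits on the erlin complex, and its log2 fold change of 0.25 became -0.07 with all libraries. Vcp, the ATPase that pulls substrates from the membrane and that RHBDL4 binds, averaged 368 ± 15.0 CPM over knockouts (n = 5) and 384 ± 13.9 CPM over wild types (n = 4). Its log2 fold change was -0.06 ± 0.07 (edgeR adjusted p = 0.762). The IP3 receptor genes Itpr1, Itpr2 and Itpr3, whose proteins are erlin substrates, had log2 fold changes of 0.13, -0.03 and 0.22.

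Among the 7 genes of sterol sensing, all tested, Scap, the escort of the SREBP factors, had the smallest p (90.9 ± 7.89 against 77.1 ± 13.8 CPM; edgeR adjusted p = 0.522). Its log2 fold change was 0.24, and 0.11 without wild-type replicate 1 as well or 0.38 with all libraries. The list's median log2 fold change was 0.12, with a range of -0.24 to 0.28, and its median was -0.06 with all libraries. Other genes with an SPFH domain gave 6 tested of 9. Stoml2, a mitochondrial member, stood at 62.0 to 69.7 CPM in knockout and 76.6 to 84.5 CPM in wild-type libraries without wild-type replicate 5. Its log2 fold change was -0.26 ± 0.07 (edgeR adjusted p = 0.296). Its groups did not overlap in either fit. DESeq2 called it without that library (adjusted p = 0.0210). Flot1 and Flot2, the flotillins of the plasma membrane, stood at 128 ± 30.7 against 83.2 ± 11.9 CPM and 109 ± 42.4 against 75.7 ± 15.4 CPM, log2 fold changes of 0.63 and 0.52 (edgeR adjusted p = 0.298 and 0.483). Flot2 was at 0.26 with all libraries and at 0.28 without knockout replicate 3 and wild-type replicate 5. Fibroblast markers moved with the libraries too: their share of counts was 0.337% to 0.767% in knockout libraries and 0.0163% to 0.610% in wild-type replicates 1 to 4. Their part in these differences was not tested.

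**Figure D4:**
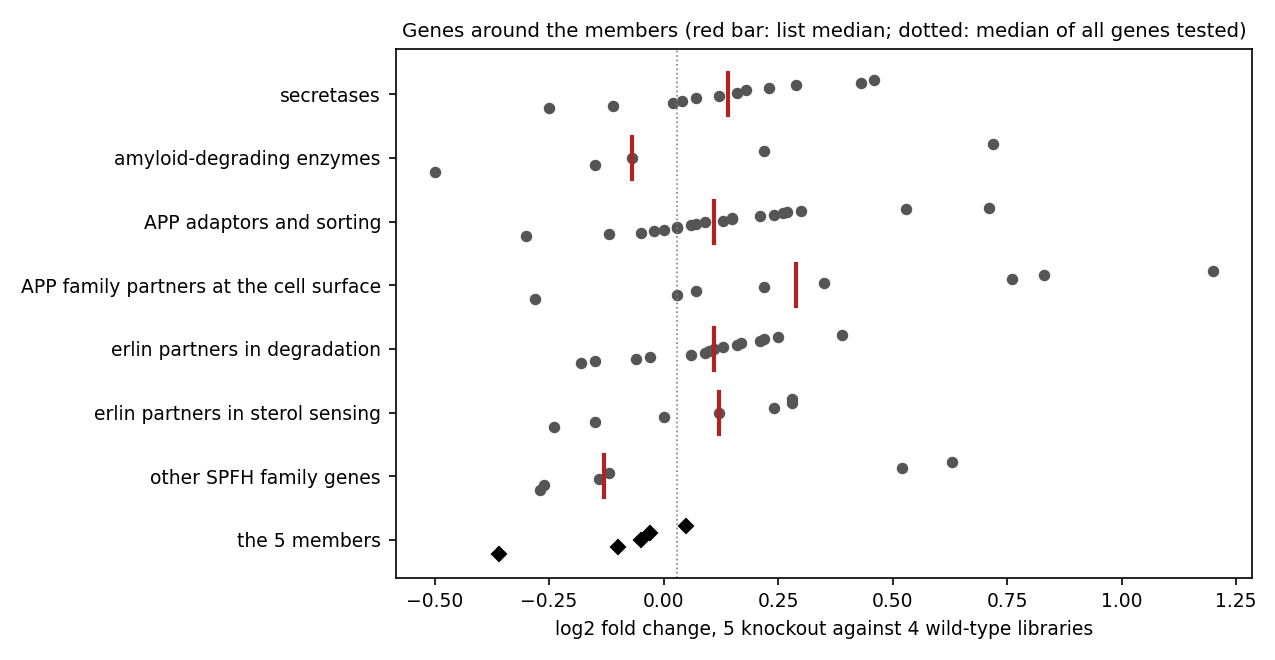
Log2 fold change (x axis) of each tested gene of the 7 lists around the members, from 5 knockout and 4 wild-type libraries; 1 point per gene, red bars are list medians, and the dotted line is the median of all genes tested. The 5 members (diamonds) lie between -0.36 and 0.05, and no gene shown passed the edgeR test.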

How the data were processed

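The authors deposited raw read counts per Ensembl gene, 1 column per library, not normalized (0 columns without a sample). FastQC, STAR, featureCounts and DESeq2 are named in the submitters' processing notes, with GRCm39 as the build. The sources used here give no versions, annotation release, strand setting or handling of multi-mapping reads. Of 57010 genes, 52029 had a symbol (99.66% of counts). Per the labels, each library is a batch of its own, so no fit could hold batch as a term, and batch and genotype cannot be told apart.

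Knockout was compared with wild type over all genes in edgeR 4.0.16 (R 4.3.3): TMM, filterByExpr, robust quasi-likelihood F-test, Benjamini-Hochberg adjustment, called under 0.05. SE is the log2 fold change divided by the square root of F; intervals are 95%. Total counts of 25.7 to 43.3 M per library set the counting precision. Alternatives used RLE or upper-quartile scaling, DESeq2 1.42.0, limma-voom (limma 3.58.1) with sample quality weights, other low-count filters, the leading number of the library name (summed, or as a random block in limma-voom) and leaving out each library. Unscaled CPM and merged exon lengths were added after the data were seen. The fit was also run on simulated counts, with an outcome not reported here. Those counts held no library that stands apart as wild-type replicate 5 does. Lengths and sequences came from GENCODE M21 (GRCm38), and its coordinates were not used.

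Members and lists were chosen with earlier results of these data known. The text names all members, Rhbdd1, the 3 genes of each list with the smallest p without wild-type replicate 5 and the 3 most similar genes per member (mean of at least 1 CPM, prior count 2, no predicted genes). Some genes that this rule names are not reported here. Bace1, Adam10, Vcp and the IP3 receptor genes were named after their values were seen, for their roles. Of 199 list entries, 198 matched by symbol and 1 (Phb1) did not.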

Additional observations from a re-analysis of the deposited data

Results flagged for a closer look

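In groups of 4 or 5 libraries, values were marked where 1 library's gap to its nearest neighbour took up an unusually large part of the group's range (above Dixon's 95% critical value). Chance marks about 5% of independent groups, and 4 of 28 were marked. The groups here were not independent, since both fits and the ratios reuse the same libraries. The count therefore cannot be weighed against that share. In wild-type replicate 5, App (450 CPM) and Erlin2 (57.0 CPM) lay far below the other 4 wild-type libraries, and Aplp2 counts (156% of App counts) lay far above them. In knockout replicate 3, Erlin1 counts were 26.2% of Erlin2 counts, below the other 4 knockout libraries. For wild-type replicate 5, low epithelial and high muscle marker shares stand beside these values, and their part was not tested.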

How the results depend on the processing

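No member was called in any of 175 alternative values. Of these, 160 kept the direction or rounded to 0.00, and 15 turned it. The cause was not tested. With all 10 libraries, leaving out 1 library gave log2 fold changes of -0.03 to 0.13 for App, -0.36 to 0.16 for Aplp1, -0.20 to 0.05 for Aplp2, -0.05 to 0.16 for Erlin1 and -0.10 to 0.15 for Erlin2. The lows of App, Aplp1, Erlin1 and Erlin2 and the high of Aplp2 came without wild-type replicate 5, and the high of Aplp1 came without wild-type replicate 1. Limma-voom with sample quality weights turned App (-0.10), Aplp2 (0.27) and Erlin2 (-0.01). Aplp1 turned to 0.14 with libraries of the same leading number summed and to 0.34 with that number as a random block. Without wild-type replicate 5, leaving out a further library gave -0.08 to 0.00 for App, -0.43 to -0.19 for Aplp1, -0.05 to 0.15 for Aplp2, -0.10 to 0.02 for Erlin1 and -0.14 to -0.06 for Erlin2, and limma-voom turned Erlin1 (0.05) and Ide (0.01). Aplp2 there was negative without wild-type replicate 3 or 4, and Erlin1 positive without knockout replicate 3 or wild-type replicate 2. In limma-voom with sample quality weights and without wild-type replicate 5, Aplp2 was 0.29 (unadjusted p = 0.0446, adjusted p = 0.257). Aplp1 was -0.31 in that fit (unadjusted p = 0.0493, adjusted p = 0.267). The same fit put 3524 of 19016 genes at an unadjusted p under 0.05. The count of called genes with all libraries was 0 in edgeR, 54 with DESeq2, 17 with limma-voom and 0 to 2 with 1 library left out. Without wild-type replicate 5 it was 2, and 1 with upper-quartile scaling, 463 with DESeq2, 143 with limma-voom, 0 with sums or blocks by leading number and 0 to 1 with a further library left out. Over merged exon lengths the median Aplp2 level per kb was 146% of App, in place of 57.8% over principal messenger RNAs. Of the members, Aplp1 had the widest 95% interval in both fits, -1.21 to 1.03 with all libraries and -0.74 to 0.03 without wild-type replicate 5.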
